A study of Mus musculus with 32 samples.

Results

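Whole-lung mRNA was compared between newborn mice kept in hyperoxia (85% O2) and age-matched controls kept in 21% O2, at post-natal day (P)14, in animals that had received the scrambled antimiR. The members were the 8 arrays whose titles and characteristics give P14, the scrambled control oligonucleotide and one of the oxygen levels, 4 arrays a side, out of 32 arrays in the series. The other 24 arrays held mice at P5, mice given antimiR-34a, or both, and were used here for the spread and for the differences between ages and between antimiRs. Exposure to 85% O2 from birth is a model of bronchopulmonary dysplasia, the lung disease of preterm infants who need oxygen, and the comparison gives the change in the lung transcriptome after 2 weeks of exposure.

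The mice were wild-type C57Bl/6J pups of either sex, randomised to litters of equal size. They were exposed from P1 to P14 to 21% or 85% O2, and nursing dams were rotated daily between the chambers. Both groups carried the same injection, a scrambled antimiR, which is a locked nucleic acid oligonucleotide without a microRNA target. Lungs were perfused with PBS, which removes much but not all blood before RNA was taken from the whole organ. The labels give isoflurane and a miRNeasy kit at P14, whereas the methods give pentobarbital and a peqGOLD kit. The labels list each array as a separate sample, called a mouse below, but whether a sample held RNA of a single animal is not given in the sources used here, so p-values measure the spread between samples. In whole-lung RNA, fewer cells of a type and less RNA per cell cannot be told apart.

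During the first 2 weeks of life the mouse lung divides its terminal sacs into alveoli by raising thin septa. Myofibroblasts that carry the PDGF receptor α lay down elastin at the tips of the septa, type I and type II pneumocytes line them, and capillaries grow within them. Oxygen at high concentration damages DNA and lipids. It is known to engage the p53 response to DNA damage, the NRF2 response to electrophiles and the ATF4 response to amino acid and protein stress, together with inflammation and a loss of septa.

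Each slide of the array platform carried mice of a single oxygen level, so slide and oxygen cannot be told apart in any value below. The 75th percentile of the arrays lay between 9.37 and 9.90 (log2) in 85% O2 and between 9.34 and 10.17 in 21% O2 (exact two-sided permutation test, p = 0.229). Every 85% O2 array had fewer probes well above background (34777 to 36475) than every 21% O2 array (39183 to 40776, exact permutation p = 0.0286, the lowest possible with 4 mice a side). Precision is limited by there being 4 mice a side. The lung markers were in place in both groups, with Sftpc, the surfactant gene of type II pneumocytes, at a log2 level of 9.48 ± 0.17 (SD, n = 4) in 85% O2 and 9.26 ± 0.25 (SD, n = 4) in 21% O2. The housekeeping gene Polr2a was at 0.05 ± 0.08 and 0.02 ± 0.19 (SD, n = 4 each, limma adjusted p = 0.796). The sign of that difference turned to 0 or below under some alternatives.

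Some libraries stood apart. Mouse 4 in 21% O2 was the dimmest array of its group, and mouse 1 in 21% O2 carried more adipocyte and skeletal muscle RNA than its group. Ddx3y, a Y chromosome gene, was at 1.96, -1.13, -3.64 and 1.76 in mice 1 to 4 in 85% O2 and at -8.61, -8.60, -8.64 and 1.22 in mice 1 to 4 in 21% O2. Xist, the RNA of the inactive X chromosome, was at -8.35, 1.42, 1.64 and -1.6 in 85% O2 and at 1.08, 1.28, 1.34 and -2.56 in 21% O2. Mice 2, 3 and 4 in 85% O2 and mouse 4 in 21% O2 thus held both RNAs above background, and whether these 4 libraries held RNA of more than 1 animal was not tested. Ddx3y was above background in 4 of 4 libraries in 85% O2 and in 1 of 4 in 21% O2, so sex-linked RNA was not balanced between the oxygen levels. With the Y chromosome level as a covariate, 20 p53 and 28 NRF2 targets were higher and 15 lymphocyte genes lower. The results below were also computed without these 4 libraries, which leaves 1 mouse in 85% O2, assumed to vary like the other groups. That mouse held Ddx3y and not Xist above background, whereas mice 1 to 3 in 21% O2 held Xist and not Ddx3y. Without the 4 libraries, sex-linked RNA and oxygen therefore cannot be told apart. The results were computed as well without mice 1 and 4 in 21% O2.

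Levels are given as log2 of the processed spot intensity relative to each array's 75th percentile, and a value of 1 is a doubling against that percentile. Of 17698 genes tested, 5809 were higher (32.8%) and 5373 lower (30.4%) in 85% O2 at a limma adjusted p under 0.05, and the median log2 fold change was 0.006. At an absolute log2 fold change of at least 1, 1060 genes were higher and 1937 lower. Of 38455 probes tested, 10915 were higher and 12468 lower, so 46.7% of the called probes were higher. With normexp background correction the share was 63.5%, since 6502 probes were then lower, and the median over the probes moved from -0.06 to 0.11. Of 137 genes followed by name through the alternatives, the fold was over 1.5 times smaller with normexp for 41. A normexp value stands beside those of the 41 whose fold is given below. For none of the 137 was the fold larger by that much. Single genes outside the 137 were not compared in this way, so their folds below are on the processed signal alone. The shares of 32.8% and 30.4% are the background against which each gene group is read, and a group with similar shares does not stand out from the other genes.

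**Figure D1:**
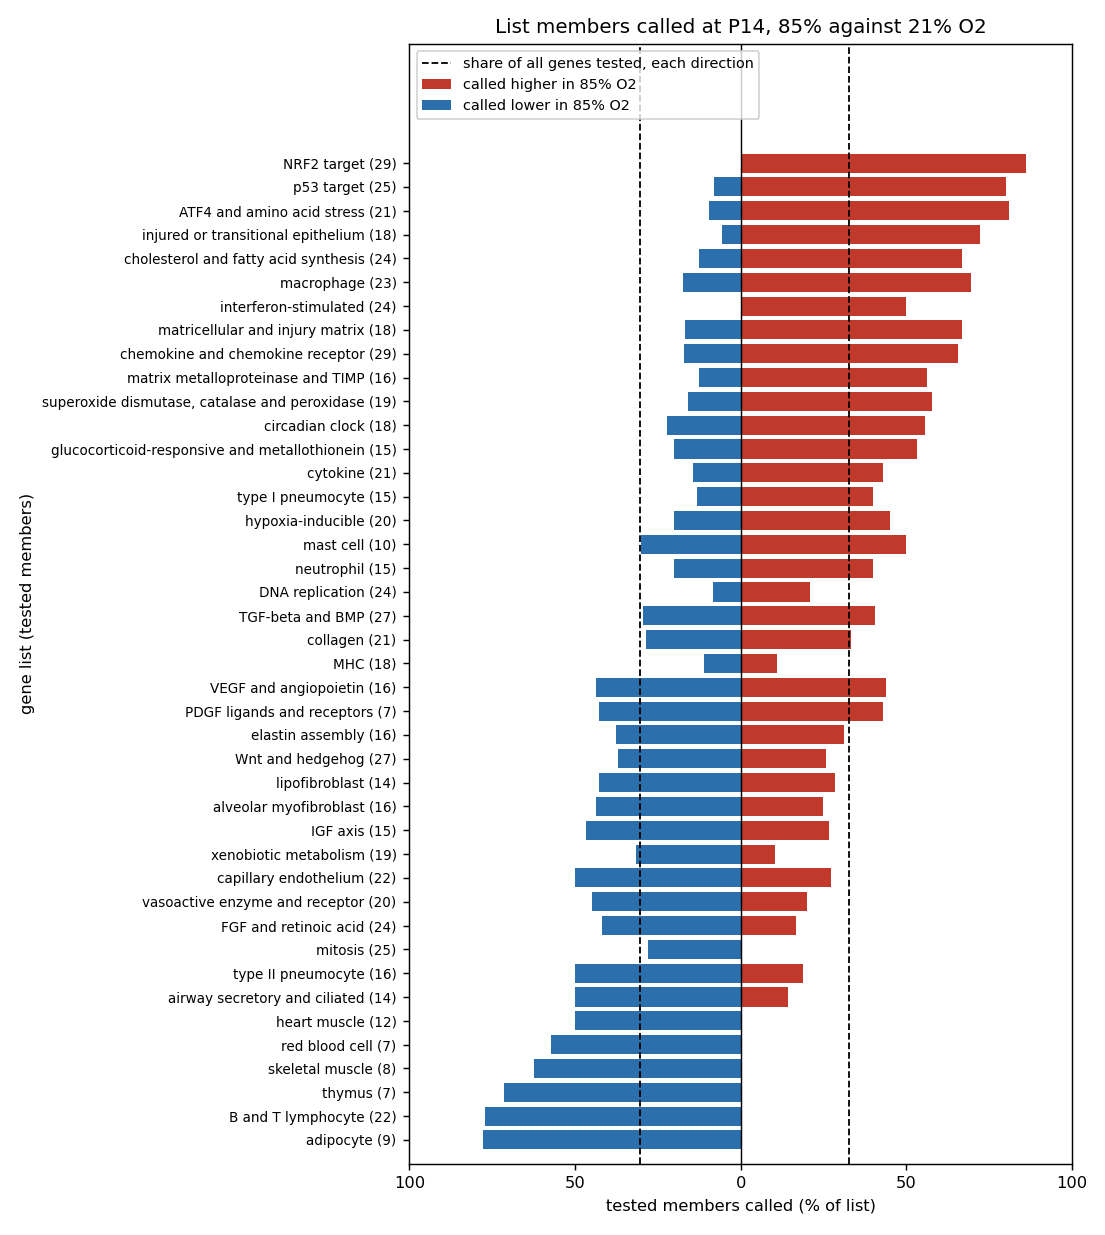
Horizontal bars give the percent of the tested members of each gene list called higher (right, red) or lower (left, blue) in 85% O2 against 21% O2 at P14, with the number of tested members in brackets. The dashed lines mark 32.8% and 30.4%, the shares over all 17698 genes, and the NRF2, p53 and ATF4 lists at the top reach 86.2%, 80% and 81% higher.

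The p53 target genes rose together. Of 25 tested members, 20 were higher and 2 lower, with a median log2 fold change of 1.3. Cdkn1a (p21), the cyclin-dependent kinase inhibitor that halts the cell cycle after DNA damage, was at 4.90, 4.78, 4.75 and 4.84 in the mice in 85% O2 and at 0.59, 0.23, 0.61 and 0.26 in those in 21% O2 (probe at chromosome 17, 29237377 to 29237436, mm9). The level was 21.0-fold higher (log2 fold change 4.40, SE 0.12, limma adjusted p = 2.02e-11). Gdf15, a stress-induced hormone that acts on appetite, was at 2.88, 3.08, 3.16 and 3.74 in 85% O2 and at -1.98, -1.66, -1.70 and -1.82 in 21% O2. It was 32.1-fold higher (SE 0.20 on the log2 scale, limma adjusted p = 4.73e-10). Eda2r, a death receptor of the TNF family and a p53 target, was above background in every mouse in 85% O2 and in none in 21% O2, and was at least 13.9-fold higher on the processed signal. With normexp its log2 fold change was 1.87, which is below that bound.

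Psrc1, a microtubule regulator, was 21.4-fold higher. Among genes of apoptosis, Tnfrsf10b, the TRAIL receptor, was 5.24-fold higher, Aen, an apoptosis-enhancing nuclease, 5.41-fold, and Bax, the pore-forming protein of mitochondrial apoptosis, 3.44-fold. The array annotation places the Aen probe on another chromosome than RefSeq places the gene, which held for 19 of the 751 genes examined by name or list. Ccng1, cyclin G1, was 4.03-fold and Zmat3, an RNA-binding target of p53, 4.19-fold higher. Mdm2, the ubiquitin ligase that degrades p53, was higher by 2.68-fold (3.44 to 3.67 in 21% O2 and 4.90 to 5.06 in 85% O2). Fas, the death receptor, did not change detectably at P14 (log2 fold change -0.08, adjusted p = 0.234). The members that fell were Rrm2b, the p53-inducible ribonucleotide reductase subunit, by 2.15 on the log2 scale (0.94 with normexp), and Sesn1, a sestrin that restrains mTORC1, by 0.77. For Rrm2b both probes fell, and the annotated position of the brighter one is on chromosome 13 rather than with the gene on chromosome 15.

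The NRF2 target genes had the largest share of members called higher among the lists examined. Of 29 tested, 25 were higher, none was lower, and the median log2 fold change was 0.76. Srxn1, sulfiredoxin, which repairs oxidised peroxiredoxins, was at 3.38, 3.43, 3.41 and 3.51 in 85% O2 and at 0.92, 0.87, 0.91 and 0.78 in 21% O2. The groups stood apart by many times their spread, and the level was 5.91-fold higher (SE 0.11, limma adjusted p = 1.20e-09). Osgin1 was 5.08-fold higher, Nqo1, the quinone reductase, 4.34-fold, Gclc, the catalytic subunit of glutathione synthesis, 3.62-fold, and Txnrd1, thioredoxin reductase, 2.80-fold. Gclm, the modifier subunit of the same enzyme, did not pass the test (log2 fold change 0.24, adjusted p = 0.0735).

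Slc7a11, the cystine importer that feeds glutathione synthesis, was above background in all 4 mice in 85% O2 and in none in 21% O2, and was at least 8.20-fold higher on the processed signal, whereas normexp gave a log2 fold change of 1.51, below that bound. Hmox1, haem oxygenase 1, was at 3.39, 3.12, 3.1 and 3.33 in 85% O2 and at -0.69, 1.37, -1.51 and 1.27 in 21% O2. The groups did not overlap (8.72-fold, SE 0.63 on the log2 scale, limma adjusted p = 0.000704), but the control mice spread widely, with mice 1 and 3 well below mice 2 and 4. Ugdh, UDP-glucose dehydrogenase, was the called member with the smallest rise (log2 fold change 0.32).

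NRF2 acts at antioxidant response elements, whose core is written here as TGACNNNGC. In the promoter windows of RefSeq (250 bases before to 50 after each start, GRCm38.p6), 24 of the 29 tested members had a sequence. Of these, 8 (33.3%) held the core on either strand, against 12.5% of 27025 promoters and 14.1% of 13907 promoters of tested genes. Of the 20 members with a promoter that were higher, 5 held it. The other 3 holders, Abcc4, G6pdx and Gclm, did not pass the test (log2 fold changes 0.13, 0.24 and 0.24, limma adjusted p = 0.283, 0.0855 and 0.0735). The windows of 3 holders that rose are shown so that the element can be seen beside its gene, with the core in capitals. Srxn1 lies on chr2:152105542-152105571 (minus strand), Me1, malic enzyme, which makes NADPH, on chr9:86695901-86695930 (minus strand), and Prdx1, peroxiredoxin 1, on chr4:116685456-116685485 (minus strand).
Srxn1: gtgtctcactcTGACCTAGCtgcccactgc
Me1: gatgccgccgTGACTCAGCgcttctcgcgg
Prdx1: cctacgggggaTGACTCAGCgctttccctg
The Me1 probe was 2.66-fold higher and the Prdx1 probe 1.54-fold higher in 85% O2. A match in these windows describes the sequence and was not tested as a binding site. Members here and below were listed as genes of a known response, so the share with an element describes the list alone.

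Enzymes that remove superoxide and peroxide moved less uniformly. Of 19 tested, 11 were higher and 3 lower, with a median of 0.37. Gpx2, the gastrointestinal glutathione peroxidase, was at 3.66, 3.84, 4.31 and 4.44 in 85% O2 and at 0.95, 0.94, 1.05 and 1.01 in 21% O2, an 8.46-fold rise without overlap (limma adjusted p = 2.28e-09). Sod2, the mitochondrial superoxide dismutase, was 1.97-fold higher, whereas extracellular Sod3 differed by 0.05 on the log2 scale (adjusted p = 0.639). Cat, catalase, went the other way, 3.00-fold lower, with 1.05 ± 0.07 in 85% O2 and 2.63 ± 0.73 in 21% O2 (SD, n = 4 each). Without the 4 libraries that held both Xist and Ddx3y, its fall was 1.15 on the log2 scale and no longer passed the test.

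Of 21 tested genes of the ATF4 and amino acid stress response, 17 were higher and 2 lower, with a median of 0.90. Trib3, a pseudokinase induced by ATF4, was at 3.21, 2.76, 2.92 and 3.47 in 85% O2 and at 0.51, 0.46, 0.59 and 0.17 in 21% O2. It was 6.31-fold higher, with a wide gap between the groups (SE 0.15, limma adjusted p = 1.23e-08). Atf3 was 4.11-fold higher, Stc2, stanniocalcin 2, 3.67-fold, Nupr1 2.96-fold, and Asns, asparagine synthetase, 2.65-fold. The transcription factors Atf4 and Ddit3 (CHOP) rose less than these, by 1.86-fold and 1.95-fold. Pck2, mitochondrial PEP carboxykinase, fell by 0.50 on the log2 scale, a call that was lost under normexp, quantile normalization and the authors' values.

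ATF4 binds composite CCAAT/enhancer binding protein-ATF elements, written here as TGATGNAA. Of 18 members with a promoter in the RefSeq windows, 6 (33.3%) held these letters on either strand. The share was 4.06% of 27025 promoters and 2.69% of 13907 promoters of tested genes. Of the 6 members, 4 were higher at P14. The elements of the higher members are printed in capitals, for Asns at chr6:7693214-7693243 (minus strand), Atf3 at chr1:191183425-191183454 (plus strand), Nupr1 at chr7:126625562-126625591 (plus strand) and Trib3 at chr2:152344028-152344057 (plus strand).
Asns: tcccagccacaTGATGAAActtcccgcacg
Atf3: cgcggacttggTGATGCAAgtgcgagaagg
Nupr1: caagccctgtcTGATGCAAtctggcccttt
Trib3: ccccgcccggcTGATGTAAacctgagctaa
The other holders were Chac1, a glutathione-degrading enzyme, which did not pass the test (log2 fold change 0.21, adjusted p = 0.252), and Pck2.

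Other stress and metabolic groups shifted by smaller amounts. Of 24 genes of cholesterol and fatty acid synthesis, 16 were higher and 3 lower (median 0.32). None reached an absolute log2 fold change of 1. Mvd, mevalonate diphosphate decarboxylase, was 1.75-fold and Sqle, squalene epoxidase, 1.59-fold higher, while Nsdhl fell by 0.63 on the log2 scale. Without the 4 libraries that held both sex-linked RNAs, 10 members were higher. Of 20 hypoxia-inducible genes, 9 were higher and 4 lower (median 0.18), and with normexp 10 were higher and 2 lower. Ankrd37 was 3.11-fold and the hexokinase Hk2 3.05-fold higher, and the histone demethylase Kdm3a was lower by 0.80 on the log2 scale. Vegfa differed by 0.01 on the log2 scale on its brighter probe (adjusted p = 0.913), with a sign that turned under quantile normalization and the authors' values, and its other probe was called higher.

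Of 15 glucocorticoid-responsive genes and metallothioneins, 8 were higher and 3 lower (median 0.80). The metal-binding Mt1 was 3.77-fold and Mt2 4.37-fold higher, and Cdkn1c, a cell cycle inhibitor, was lower by 1.03 on the log2 scale. Of 18 circadian clock genes, 10 were higher and 4 lower (median 0.36). The repressor Bhlhe40 was 5.07-fold and Nr1d1 (REV-ERBα) 4.08-fold higher, while the output factor Hlf was 3.22-fold lower. The time of day at which each mouse was killed is not given in the sources used here.

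**Figure D2:**
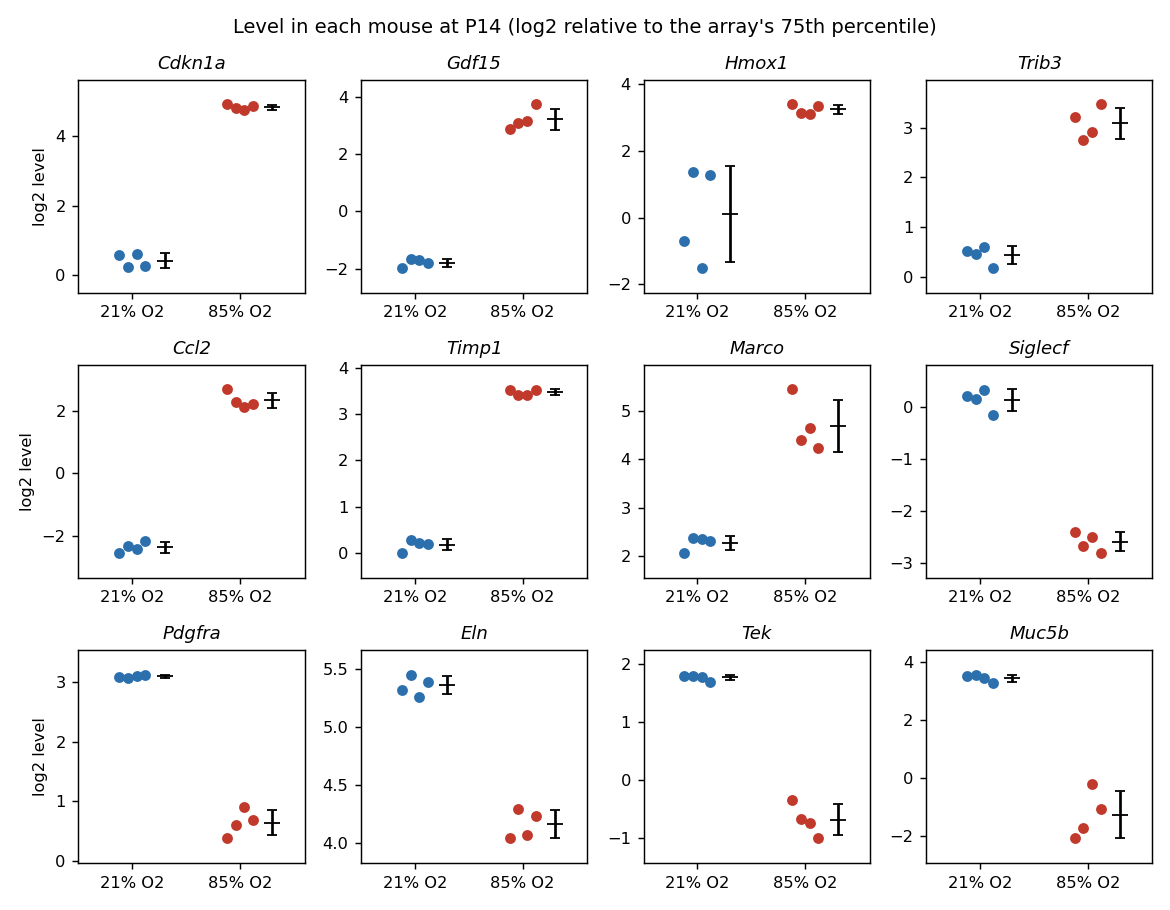
Each panel gives the log2 level of a gene relative to the array's 75th percentile in each of the 4 mice in 21% O2 (blue) and 85% O2 (red) at P14, with the mean and SD as a bar beside the points and an axis of its own per panel. Hmox1 in 21% O2 and Muc5b in 85% O2 have the widest spread of those shown.

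Chemokines and acute-phase genes held some of the largest rises among genes measured on all 8 arrays. Saa3, an acute-phase apolipoprotein made in inflamed tissue, was at 5.25, 4.07, 5.68 and 5.02 in 85% O2 and at -1.70, -1.31, -1.53 and -1.59 in 21% O2, a 92.9-fold rise (SE 0.46 on the log2 scale, limma adjusted p = 8.18e-08). Cxcl5, which attracts neutrophils, was 53.9-fold higher (24.3-fold with normexp), at 1.19, 1.52, 2.04 and 1.94 against -3.83, -3.55, -4.79 and -4.15. Ccl2, which recruits monocytes, was 26.1-fold higher, at 2.69, 2.29, 2.14 and 2.23 against -2.56, -2.32, -2.42 and -2.17. The groups were far apart for each of the 3 genes, and the mice in 85% O2 varied most for Saa3.

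Of 29 chemokines and their receptors, 19 were higher and 5 lower, with a median of 0.96. The monocyte attractants Ccl7 and Ccl8 were 15-fold (9.58-fold with normexp) and 8.18-fold higher, the interferon-induced Cxcl10 13-fold, Cxcl1 6.96-fold and Ccl17 4.66-fold. The pair of Cxcl12 and its receptor Cxcr4, which guides progenitor and endothelial cells, fell. Cxcr4 was 5.84-fold lower (-1.91 ± 0.26 against 0.63 ± 0.13, SD, n = 4 each) and Cxcl12 2.06-fold lower on its brighter probe, although its other probe was called higher.

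Cytokines were mixed, with 9 of 21 higher and 3 lower (median 0.53). Il6 was above background in 4 of 4 mice in 85% O2 and in 3 of 4 in 21% O2, at -0.96, -1.20, -1.11 and -1.70 against -5.50, -5.79, -5.51 and -6.65 (limma adjusted p = 7.38e-07), and its fold with normexp was 6.02. Tnf was 3.20-fold higher and the decoy receptor Il1r2 8.06-fold higher. Il1b did not pass the test (log2 fold change -0.37, adjusted p = 0.328), and Il13ra2, the decoy receptor of interleukin 13, was 4.51-fold lower (2.04-fold with normexp).

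Of 24 interferon-stimulated genes, 12 were higher and none lower, with a median of 0.33. Without the 4 libraries with both sex-linked RNAs, 5 of 23 were higher. Ifit3 was 3.59-fold, Mx2 2.52-fold and the ubiquitin-like Isg15 1.71-fold higher. The interferon-stimulated response element, searched as the letters GAAA, any 2 bases and GAAA again, was found on either strand in 12 of 17 members with a promoter (70.6%). The share was 3.49% of 27025 promoters and 3.24% of 13907 promoters of tested genes. Of the 8 members with a promoter that were higher, 7 held such elements. Those of Ifit3 at chr19:34583363-34583392 (minus strand) and of Isg15 at chr4:156200877-156200906 (minus strand) are shown with the element in capitals.
Ifit3: accagaagagGAAAGTGAAActtaccactg
Isg15: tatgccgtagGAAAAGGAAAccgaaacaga
Both promoters hold further copies, of which the nearest in Isg15 overlaps the copy shown. Holders that did not pass the test included the helicase Ifih1 (log2 fold change -0.13, adjusted p = 0.428) and Rsad2 (-0.70, adjusted p = 0.2).

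Macrophage genes moved in opposite directions. Of 23 tested, 16 were higher and 4 lower, with a median of 1.09. Marco, a scavenger receptor, was 5.30-fold higher, Gpnmb 4.93-fold, the lipid receptor Trem2 4.65-fold, the scavenger receptor Msr1 4.75-fold and the complement gene C1qa 2.75-fold. The phosphoprotein Spp1 was at 0.00, -0.13, -1.03 and -1.51 in 85% O2 and at -3.64, -3.19, -3.26 and -3.41 in 21% O2 (6.54-fold, and 4.29-fold with normexp). The general markers rose less, Mrc1 by 1.9-fold and Adgre1 (F4/80) by 1.59-fold.

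The 4 macrophage genes that fell were Siglecf, a sialic acid receptor, Ear1, Ear2 and Chil3. Siglecf was at -2.41, -2.68, -2.5 and -2.82 in 85% O2 and at 0.20, 0.15, 0.31 and -0.17 in 21% O2 (6.60-fold lower, limma adjusted p = 2.28e-09). Ear1 and Ear2, eosinophil-associated ribonucleases whose sequences are alike so that the probes may share transcripts, were 7.46-fold and 4.97-fold lower. Chil3 was 5.35-fold lower, and the related chitinase-like Chil4 was 19.7-fold lower (6.63-fold with normexp). The groups did not overlap for any of these 5 genes.

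Of 10 mast cell genes, 5 were higher and 3 lower (median 0.78). Of the granule proteases, Mcpt4 rose by 9.14-fold, Cma1 by 7.62-fold and carboxypeptidase Cpa3 by 4.33-fold. Mcpt2 was above background in the 85% O2 mice alone, at least 6.5-fold higher (log2 fold change 1.29 with normexp, below that bound). Kit, the stem cell factor receptor, which lung capillary cells also carry, fell 9.04-fold, from 3.34, 3.29, 3.33 and 3.24 in 21% O2 to 0.16, -0.17, 0.13 and 0.37 in 85% O2. Kit therefore went against these protease genes, and the other members that fell are not named here. Of 15 neutrophil genes, 6 were higher and 3 lower (median 0.58). The number higher fell to 2 without mouse 4 in 85% O2 or mouse 3 in 21% O2, and to 3 without any of 4 other mice. Lcn2, lipocalin 2, which epithelium also makes, was 6.93-fold higher, and Retnlg was 3.90-fold lower.

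B and T lymphocyte genes fell, 17 of 22 with none higher and a median of -1.05. With normexp 12 were lower (median -0.50), and with quantile normalization 14 (median -0.72). Ms4a1 (CD20) was at 0.67, 0.04, 0.28 and 0.55 in 85% O2 and at 2.57, 2.34, 2.53 and 1.89 in 21% O2 (3.86-fold lower, limma adjusted p = 2.38e-06). Cd79a, a subunit of the B cell receptor, was 2.45-fold lower and fell on both its probes, although the annotation places the brighter probe on chromosome 12 and the gene is on chromosome 7. Cd8b1 was 4.43-fold lower (1.78-fold with normexp). Cd3e and Cd4 did not pass the test (log2 fold change -0.16, adjusted p = 0.438, and 0.25, adjusted p = 0.141), although the other probe of Cd4 was called lower. Thymus genes, of which Cd8b1 is counted in the lymphocyte list too, also fell, in 5 of 7 tested members (median -1.49). Rag1, the recombinase, was above background in 21% O2 alone, at least 2.72-fold higher there. With normexp, 1 thymus gene was lower (median -0.05) and Rag1 was no longer called (log2 fold change -0.25), and with quantile normalization 3 thymus genes were lower (median -0.93). The part of thymus RNA in the fall of the lymphocyte genes was not tested. Without mice 1 and 4 in 21% O2, 13 lymphocyte and 3 thymus genes were lower, and 3 thymus genes were also lower without mouse 1 or 2 in 85% O2 or mouse 1, 3 or 4 in 21% O2. Most MHC genes did not pass the test, with 2 of 18 higher and 2 lower. With 1 mouse left out, 1 to 3 were higher and 2 to 4 lower, and with quantile normalization 1 was higher and 4 lower.

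Of 18 matricellular genes, 12 were higher and 3 lower, with a median of 1.13. Inhba, the subunit of activin A, was at 3.38, 3.42, 2.49 and 2.79 in 85% O2 and at -1.58, -1.69, -1.84 and -1.45 in 21% O2, 25.3-fold higher (SE 0.19, limma adjusted p = 6.48e-10), and its antagonist follistatin (Fst) was 8.44-fold higher. The groups did not overlap for either gene.

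Smaller rises were seen for Thbs1, thrombospondin 1, which activates latent TGF-β (3.78-fold), Tnc, tenascin C (3.52-fold), and Ccn2, connective tissue growth factor (2.55-fold). Sparcl1, an adhesion modulator, fell by 0.77 on the log2 scale. Of 16 matrix metalloproteinases and their inhibitors, 9 were higher and 2 lower (median 0.85). The number higher was 7 or 8 with 1 mouse left out and 5 without mice 1 and 4 in 21% O2. Mmp10, stromelysin 2, was at -0.06, 0.03, -0.68 and -0.12 in 85% O2 and was not well above background in any mouse in 21% O2, a rise of at least 75.6-fold on the processed signal and of 3.68 on the log2 scale with normexp, below that bound. Timp1, a tissue inhibitor, was 9.74-fold higher. Mmp9 and Mmp15 were 1.73-fold and 1.6-fold lower, and the call of Mmp9 was lost with normexp and quantile normalization.

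Of 18 genes of injured or transitional epithelium, 13 were higher and 1 lower, with a median of 1.07. Without the 4 libraries with both sex-linked RNAs, 8 were higher. Areg, amphiregulin, an EGF receptor ligand, was 9.95-fold higher (6.45-fold with normexp), at -0.38, -0.45, 0.07 and 0.40 against -3.85, -3.31, -3.45 and -3.00. Ereg, a related ligand, was 5.01-fold, the tight junction gene Cldn4 4.94-fold, Sfn, 14-3-3σ and a p53 target, 3.06-fold and keratin 8 (Krt8) 1.65-fold higher, the last not called without mice 1 and 4 in 21% O2. The Sfn probe is annotated to chromosome 3, whereas RefSeq places the gene on chromosome 4. Krt17 was the member that fell (at least 1.40-fold lower), and that direction turned with normexp.

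The collagens as a group did not stand out, with 7 of 21 higher and 6 lower and a median of 0.18, which became -0.02 under quantile normalization and the authors' values. Individual chains moved in both directions. Col5a3, a chain of the regulatory type V collagen, was at 2.49, 2.63, 2.03 and 2.37 in 85% O2 and at -0.16, -0.43, -0.51 and -0.65 in 21% O2, 7.05-fold higher (limma adjusted p = 2.47e-07). Col8a1, a vessel wall collagen, was 4.13-fold higher. Among the main fibrillar chains, Col3a1 was lower by 0.40 and Col1a1 by 0.19 on the log2 scale, and the call of Col1a1 was lost in 11 of 22 alternatives. Col14a1, a fibril-associated chain, was 2.06-fold lower.

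Of 16 alveolar myofibroblast genes, 4 were higher and 7 lower (median -0.24, and -0.01 with normexp). Pdgfra, the receptor that defines these cells, was at 0.38, 0.61, 0.90 and 0.69 in 85% O2 and at 3.09, 3.07, 3.11 and 3.13 in 21% O2 (probe at chromosome 5, 75593888 to 75593947, mm9). The groups were far apart, and the level was 5.49-fold lower (log2 fold change -2.46, SE 0.28, limma adjusted p = 6.25e-06). Mustn1 was 3.20-fold, P2ry14 2.69-fold and the matrix gene Aspn 2.02-fold lower. Among the contractile genes of the list, which smooth muscle shares, Acta2 (smooth muscle actin) was 1.92-fold and Tagln 1.66-fold higher. The values of the other contractile members, Myh11, Cnn1, Des and Actg2, are not given here.

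Among the PDGF ligands and receptors, 3 of 7 were higher and 3 lower. Both receptors fell, Pdgfrb by 0.67 on the log2 scale, while the ligands Pdgfa, Pdgfb and Pdgfc were 1.62-fold, 1.8-fold and 3.19-fold higher. Of 16 genes of elastin assembly, 5 were higher and 6 lower (median 0.01), and 3 were higher without mouse 1 in 21% O2 or with quantile normalization. Eln, elastin itself, was 2.30-fold lower, at 4.04, 4.29, 4.07 and 4.23 against 5.32, 5.45, 5.26 and 5.39 (limma adjusted p = 0.000693). The microfibril gene Mfap2 was 2.13-fold lower. Lox, the cross-linking oxidase, was 1.88-fold and Efemp2, fibulin 4, 1.61-fold higher. Of 14 lipofibroblast genes, 4 were higher and 6 lower. Wnt2, a mesenchymal Wnt ligand, was 3.36-fold higher and the methyltransferase Inmt 5.06-fold lower, while Fgf10, which drives epithelial growth, was 1.53-fold lower.

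Genes of alveolar epithelium moved in both directions by small amounts. Of 15 type I pneumocyte genes, 6 were higher and 2 lower (median 0.15), and 1 was higher without the 4 libraries with both sex-linked RNAs. The water channel Aqp5 was 1.76-fold and Hopx 1.51-fold higher, Cav1, which endothelium also expresses, was 1.63-fold lower, and Ager did not change detectably (log2 fold change 0.03, adjusted p = 0.842). The probes of Emp2 were called in opposite directions. Of 16 type II pneumocyte genes, 3 were higher and 8 lower (median -0.26). Sftpd, surfactant protein D, was 1.65-fold higher, whereas Sftpa1 was 1.83-fold lower and Lamp3 and Slc34a2, genes of lamellar bodies and phosphate transport, were 1.34-fold and 1.51-fold lower. Sftpc was not called (log2 fold change 0.21, adjusted p = 0.175).

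The airway list split sharply between secretory products. Scgb1a1, the club cell secretoglobin, was 1.35-fold higher, and Foxj1, the ciliated cell factor, was not called (log2 fold change 0.32, adjusted p = 0.215). By contrast, Muc5b, the gel-forming mucin, was at -2.05, -1.71, -0.19 and -1.05 in 85% O2 and at 3.52, 3.56, 3.46 and 3.29 in 21% O2 (26.1-fold lower, limma adjusted p = 5.52e-05). Scgb3a1 was 37.8-fold lower, at -1.28, -1.83, 1.06 and 0.01 against 4.91, 4.62, 4.79 and 4.6. Bpifb1, an antimicrobial secretion of large airways, was 29.9-fold and Reg3g, an antimicrobial lectin, 26.1-fold lower. The mice in 85% O2 were ordered alike for these genes, with mouse 3 the highest for each and mouse 2 the lowest for Scgb3a1, Bpifb1 and Reg3g. Of the 14 members, 2 were higher and 7 lower (median -0.47), and 3 were lower without the 4 libraries with both sex-linked RNAs. How much large airway each sample contained was not measured.

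Capillary endothelial genes fell in 11 of 22 and rose in 6 (median -0.31). Tek, the angiopoietin receptor TIE2, was at -0.35, -0.68, -0.74 and -1.01 in 85% O2 and at 1.8, 1.79, 1.78 and 1.69 in 21% O2, 5.51-fold lower (SE 0.12, limma adjusted p = 2.58e-09). Its ligand Angpt1, which stabilises vessels, was 2.37-fold lower and the antagonist Angpt2 2.14-fold higher. Apln, apelin, was 5.43-fold higher and its receptor Aplnr 3.44-fold lower. Sox17, an arterial transcription factor, and Gpihbp1, which anchors lipoprotein lipase, were 2.94-fold and 2.60-fold lower. General markers held closer to their control levels, with Cdh5 (VE-cadherin) differing by 0.02 (adjusted p = 0.766) and Pecam1 by -0.32 on the log2 scale (adjusted p = 0.0917), while Kdr was 1.27-fold higher, a call lost under quantile normalization.

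Of 16 genes of the VEGF and angiopoietin families, 7 were higher and 7 lower. Pgf, placental growth factor, was 4.66-fold higher. Of 20 vasoactive enzymes and receptors, 4 were higher and 9 lower (median -0.37). Agtr1a, the angiotensin II receptor, was at -1.75, -1.72, -1.04 and -1.49 in 85% O2 and at 1.17, 1.31, 1.35 and 1.26 in 21% O2, 6.82-fold lower (limma adjusted p = 8.44e-09), and its precursor ligand Agt was 4.13-fold lower. Both subunits of soluble guanylate cyclase, the receptor of nitric oxide, were lower, Gucy1a1 by 2.69-fold and Gucy1b1 by 2.61-fold. Nos3, the endothelial nitric oxide synthase, was not called (log2 fold change 0.30, adjusted p = 0.204).

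Growth factor pathways of lung development were mostly split. Of 27 TGF-β and BMP genes, 11 were higher and 8 lower (median 0.03), with Bmp7 2.64-fold and the BMP antagonist Grem1 2.56-fold higher and Bmp6 3.70-fold lower. Under quantile normalization and under the authors' values, 13 were lower. Of 27 Wnt and hedgehog genes, 7 were higher and 10 lower (median -0.17). Wif1, a Wnt inhibitor, was 5.26-fold, the Wnt agonist Rspo2 4.58-fold and the nuclear effector Lef1 2.42-fold lower. Sfrp1, a secreted Wnt antagonist, was 5.93-fold (3.89-fold with normexp) and the hedgehog receptor and target Ptch1 2.08-fold higher. Axin2, a Wnt target, was 5.74-fold lower (3.48-fold with normexp) on its brighter probe, and its other probe was called higher.

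Of 24 FGF and retinoic acid genes, 4 were higher and 10 lower (median -0.12). Crabp1, which binds retinoic acid in the cytoplasm, was at -5.28, -4.98, -4.35 and -4.29 in 85% O2 and at 1.43, 1.59, 1.64 and 1.5 in 21% O2. This was a 76.9-fold fall (SE 0.37, limma adjusted p = 1.83e-08), and the largest on the processed signal among genes measured on all 8 arrays with separate groups. With normexp it was 25.8-fold, below the 34.1-fold fall of Scgb3a1. Cyp26b1, which degrades retinoic acid, was 4.29-fold lower and Aldh1a3, which makes it, 10.3-fold higher (6.77-fold with normexp). Of 15 genes of the IGF axis, 4 were higher and 7 lower. Igf1 was 2.48-fold higher on its brightest probe, as on all 5 of its probes, and Irs2, an insulin receptor substrate, was 3.07-fold higher. Igfbp7 was 8.03-fold (4.53-fold with normexp) and Igfbp3 2.32-fold lower.

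Other genes at the extremes belonged to no list. Bean1, a membrane ligand of NEDD4, was 40.3-fold higher, Mab21l3 25.2-fold and Nmrk2, a kinase of NAD synthesis, 25.6-fold (17.1-fold, 10.8-fold and 7.94-fold with normexp), with Nmrk2 the most variable of them (0.99, -1.57, -0.37 and -1.01 in 85% O2). Adcy8, an adenylate cyclase, was 17.2-fold lower (6.73-fold with normexp). Cyp2e1, a cytochrome P450 of ethanol and xenobiotic metabolism, was 20-fold lower, at -3.17, -2.33, -2.45 and -2.04 against 2.05, 1.73, 1.91 and 1.61. Fmo1, another oxidase of xenobiotics, was 4.51-fold lower. Of 19 genes of xenobiotic metabolism, 2 were higher and 6 lower. With 1 mouse left out, 1 to 2 of them were higher and 5 to 7 lower, and with normexp 1 was higher. Tssk5 (23.7-fold), 4930557B15Rik (18-fold) and Gm10375 (17.4-fold) were also lower, with mouse 4 in 21% O2 the highest for each. With normexp these falls were 13.7-fold, 7.36-fold and 6.68-fold, and without mouse 4 in 21% O2 the log2 fold change of Tssk5 was -3.67 rather than -4.57. Fabp1, a fatty acid binding protein, was at 0.15, 0.25, 0.22 and 0.22 in 21% O2 and not above background in any mouse in 85% O2, at least 79.5-fold lower (log2 fold change -3.93 with normexp, below that bound in size). Sirt1, a deacetylase, was 1.32-fold lower, and the reference genes Actb and Gapdh were 1.28-fold and 1.69-fold higher. The call of Actb was lost under quantile normalization, and the Gapdh probe is annotated to chromosome 7 while the gene lies on chromosome 6.

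Markers of tissues attached to the lung were lower in 85% O2. Of 9 adipocyte genes, 7 were lower and none higher, with a median of -4.44. The median was -3.15 without mouse 1 in 21% O2, -5.54 without mouse 4 in 21% O2, and -2.91 with normexp, where 6 were lower. Cfd, adipsin, was at 3.49, 0.68, 0.55 and 0.30 in 21% O2 and not above background in any mouse in 85% O2, at least 164-fold lower. Car3, Cidec and Adipoq were likewise above background in 21% O2 alone, at least 88.2-fold, 67.0-fold and 41.6-fold lower, and Ucp1 of brown fat was 21.8-fold lower with values from -3.52 to 3.66 among the mice in 21% O2. Its log2 fold change of -4.44 became -3.15 without mouse 1 and -5.54 without mouse 4 in 21% O2, and -3.11 with normexp. With normexp the log2 fold changes of Cfd, Car3, Cidec and Adipoq were -5.1, -3.65, -3.53 and -2.91, each below its bound in size. Mouse 1 in 21% O2 was the highest for each of these genes, yet mice 2 to 4 were also above every mouse in 85% O2. Without mice 1 and 4 in 21% O2, 7 adipocyte genes were still lower, and without the 4 libraries with both sex-linked RNAs, 3 were.

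Of 12 heart muscle genes, which in mice include the muscle sleeve of pulmonary veins, 6 were lower and none higher (median -1.33), and 2 were lower without mouse 1 or 2 in 85% O2 or without mouse 1 or 3 in 21% O2. Sln, sarcolipin, was 14.2-fold and Myl7 4.61-fold lower, and the call of Myl7 was lost in 7 of 22 alternatives, among them each of those 4 mice left out. Of 8 skeletal muscle genes, 5 were lower (median -1.47), and with normexp 3 were (median -0.55). Myl1, whose probe the annotation places on another chromosome than the gene, was at 1.14 in mouse 1 in 21% O2 and at or below -1.27 in its group otherwise. Of 7 red blood cell genes, 4 were lower (median -1.18), and 1 with normexp (median -0.61), without mouse 2 in 85% O2 or without mouse 1 in 21% O2. The amount of attached tissue and of remaining blood was not measured, so its part in these falls was not tested.

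**Figure D3:**
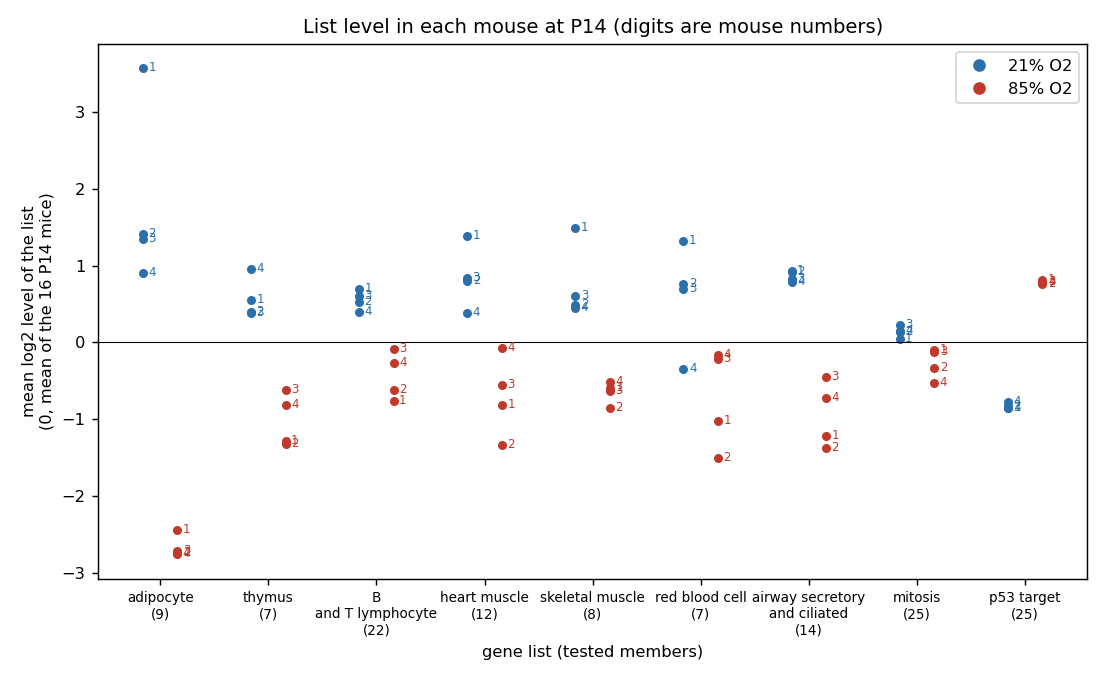
Each point is the mean log2 level of a gene list in 1 mouse, centred on the 16 P14 mice, for 21% O2 (blue) and 85% O2 (red), with digits naming the mouse and tested members in brackets. Mouse 1 in 21% O2 is the highest for adipocyte (3.57), heart muscle (1.38), skeletal muscle (1.49) and red blood cell genes (1.32), while all p53 values in 85% O2 lie between 0.76 and 0.81 and those in 21% O2 between -0.85 and -0.78.

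Cell cycle genes separated P14 from P5. At P14, 7 of 25 mitosis genes were lower and none higher (median -0.34), and 5 of 24 DNA replication genes were higher and 2 lower (median 0.11). With 1 mouse left out, the DNA replication genes higher ranged from 2 (without mouse 1 in 21% O2) to 6 and those lower from 1 to 5 (without mouse 1 in 85% O2), and 2 were higher with quantile normalization. Mki67 was at 2.48, 2.16, 2.48 and 2.24 in 85% O2 and at 2.63, 2.71, 2.90 and 2.78 in 21% O2, a difference of -0.41 on the log2 scale (SE 0.25, limma adjusted p = 0.158). Cdk1 was 1.92-fold lower, and E2f1, a transcription factor of S-phase entry, 1.68-fold higher. The count of lower mitosis genes was not stable. It was 13 with these 8 arrays alone, 4 without mouse 2 in 85% O2 or mouse 4 in 21% O2, 3 without mice 1 and 4 in 21% O2, and 0 without the 4 libraries with both sex-linked RNAs.

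At P5, by contrast, 25 of 25 mitosis genes and 23 of 24 DNA replication genes were lower in 85% O2 (medians -1.0 and -0.68). Over all genes tested at P5, 3789 were higher (22.6%) and 4025 lower (24%). The difference between the ages was itself tested as an interaction of oxygen with age over all 32 arrays. It was more positive at P14 for 18 DNA replication and 10 mitosis genes and more negative for none, against 24.9% more positive and 19.1% more negative over all genes. E2f1 shifted from -0.62 at P5 to 0.75 at P14 (interaction, limma adjusted p = 4.97e-09).

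**Figure D4:**
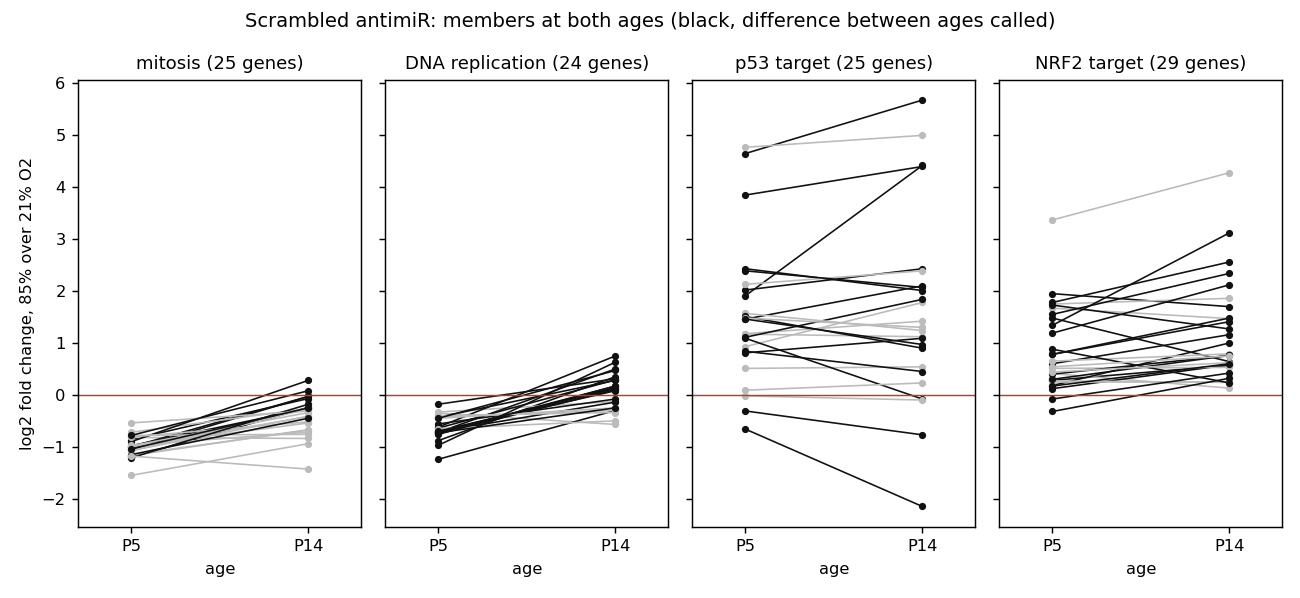
Lines join the log2 fold change (85% over 21% O2) of each member at P5 and P14 for 4 gene lists in scrambled antimiR mice, in black where the difference between ages was called. At P5 every mitosis gene lies below 0, whereas at P14 the medians are -0.34 for mitosis and 0.11 for DNA replication, and p53 and NRF2 targets lie mostly above 0 at both ages.

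The stress responses were present at both ages. At P5, 21 of 25 p53 targets were higher (median 1.46) and 24 of 29 NRF2 targets (median 0.60), and the interaction was called in both directions for p53 targets, 7 more positive and 8 more negative. For NRF2 targets, 15 were more positive at P14 and 4 more negative. Psrc1 was higher by 1.91 at P5 and 4.42 at P14 on the log2 scale (interaction, adjusted p = 2.63e-09), while Fas was higher by 1.09 at P5 alone (interaction, adjusted p = 4.04e-10).

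Matrix and immune lists were uneven in this respect. For matricellular genes, 9 of 18 were more positive at P14 and 2 more negative. Chemokines had 8 of 29 more positive and 5 more negative, metalloproteinases and their inhibitors 4 and 2 of 16, cytokines 3 and 5 of 21, and MHC genes 3 and 4 of 18, where all genes gave 24.9% and 19.1%. Tnc differed by 0.07 at P5 and by 1.82 at P14, Timp1 by 1.00 and 3.28, and Col5a3 by -0.37 and 2.82 on the log2 scale. For lymphocyte genes, 13 of 22 were more negative at P14 and 1 more positive, and 4 of 22 were lower at P5. Ear1, Siglecf and Chil3 differed by -0.36, -0.62 and -0.37 at P5 and by -2.90, -2.72 and -2.42 at P14 (interaction, adjusted p = 1.56e-08, 1.16e-06 and 0.00355). Cholesterol genes were higher in 5 and lower in 4 of 24 at P5. Of the vascular genes, Tek differed by -0.22 and -2.46 and Agtr1a by -0.24 and -2.77 (interaction, adjusted p = 4.04e-10 and 1.09e-10).

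Pdgfra was lower at both ages, by 1.26 at P5 and 2.46 at P14 in log2 terms (interaction, adjusted p = 0.00221), whereas Acta2 turned from -0.42 to 0.94 (interaction, adjusted p = 1.09e-06). Among genes measured on all 16 scrambled antimiR arrays, the largest positive interactions were those of Bean1 (0.51 at P5 and 5.33 at P14), Tnni1 (-3.18 at P5 and, not called, 0.53 at P14), Saa3 and Col5a3. The largest negative ones were those of Crabp1 (-0.71 and -6.26), Cyp2e1 (1.18 and -4.32), Tssk5 and Gm10375. Slides and scans also differed between the ages, so slide, scan and age cannot be told apart in these differences.

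**Figure D5:**
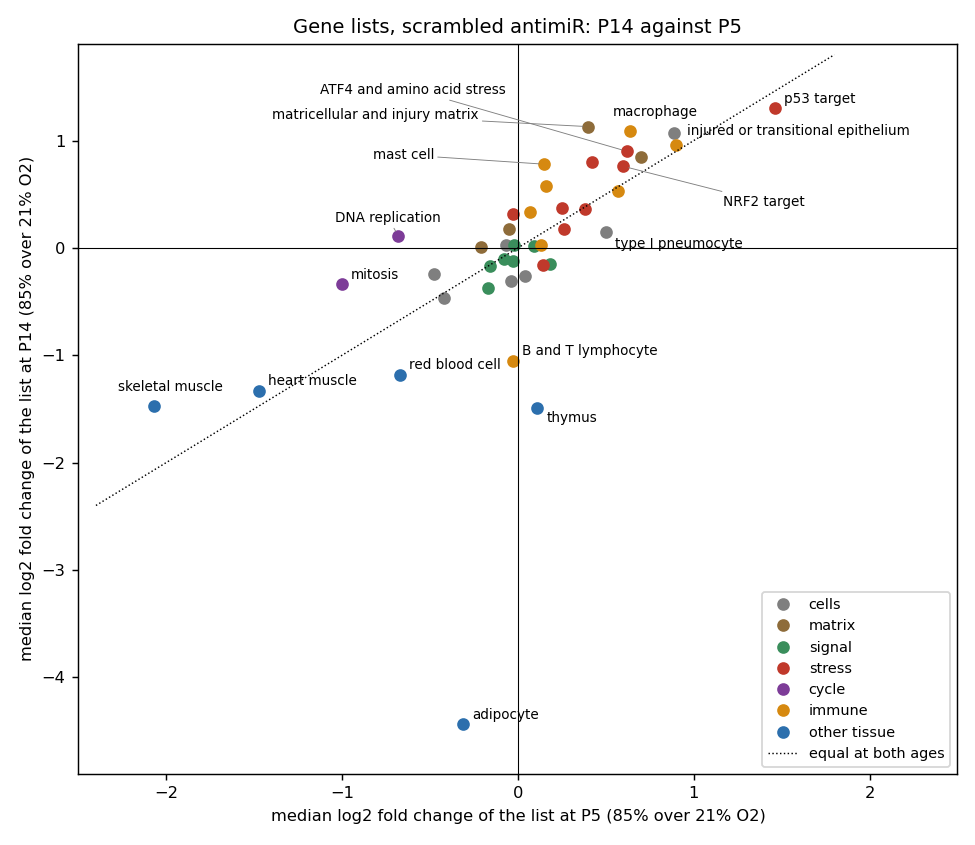
Each point is a gene list, with its median log2 fold change (85% over 21% O2) at P5 on the horizontal axis and at P14 on the vertical axis in scrambled antimiR mice, coloured by kind of list. The Y chromosome list is not drawn, the dotted line marks equal medians, and mitosis (-1.0 and -0.34), lymphocyte (-0.03 and -1.05) and adipocyte genes (-0.31 over 6 genes tested at P5 and -4.44 over 9 at P14) lie away from it.

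The oxygen effect at P14 was also measured in the mice given antimiR-34a, which blocks the p53-induced miR-34a and which used separate control mice. There 6305 genes were higher (35.6%) and 5371 lower (30.3%). The p53 list had 21 of 25 members higher (median 1.52), the NRF2 list 27 of 29 (median 0.80) and the lymphocyte list 16 of 22 lower (median -0.88). Pdgfra fell by 2.03 and Cdkn1a rose by 4.75 on the log2 scale. The interaction of oxygen with antimiR was called for 34 probes and 12 genes of 17698 tested. With an unadjusted p under 0.05 there were 5765 probes, and the count of called probes was 5 with the replicate number as a block and 1 under quantile normalization. The called genes were Gm15691, Zmym1, Zfp82, Nanos2, Acr, Il16, Nck1, Pde9a, Mllt11, Noxred1, Kctd21 and Arl16.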

How the data were processed

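Total RNA of whole lungs was hybridised to Agilent 1-colour mouse mRNA arrays, 1 labelled sample an array. The deposited scanner files, made by the authors with Agilent Feature Extraction 10.7.3.1, hold the processed spot intensity, and the deposited series table holds the authors' log2 values, which have the same distribution on all 32 arrays (r of at least 0.997 with the scanner values). Annotated probe positions are mm9. Which part of the transcript a probe reads was not analysed here.

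Of 55681 mouse probes, those well above background on 4 of 4 arrays of a P14 group were tested (38455, representing 17698 genes through RefSeq accessions or symbols). log2 intensity, less each array's 75th percentile, was fitted with limma 3.58.1 in R 4.3.3, with 16 P14 arrays for oxygen and antimiR, 16 P5 arrays for P5 and all 32 for age. P-values were adjusted by Benjamini-Hochberg over all tested probes and called under 0.05. This replaces the methods' t-test, kept as an alternative. Each gene is given by its tested probe with the highest mean. Where no array of a group was well above background, the fold is a bound, from the mean of the other group over, per array, the higher of the lowest signal well above background and the probe's own.

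Members and lists were chosen with earlier results of these data known. Named were the largest changes on all 8 arrays among called genes whose groups did not overlap. Also named were the largest bounds, each list's extremes and first gene, genes the study names, the largest age differences and other list members. The same-numbered mice did not deviate together (correlations 0.00, 0.11, 0.02 and 0.10) and were not paired. Tested on simulated data for oxygen at P14 (38320 probes), the fit recovered 33 of 100 probes changed by 0.5 and 71 of 100 changed by 1 (log2), with 2 false calls. Some genes are not reported here by name.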

Additional observations from a re-analysis of the deposited data

Results flagged for a closer look

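In 23 of 364 groups of 4 mice examined, 1 mouse lay far from the other 3, where chance gives about 1 in 20. Of these mice, 7 were mouse 1 in 21% O2 and 8 were mouse 4 in 21% O2. Mouse 1 in 21% O2 was high for Cfd (3.49), Car3 (2.29), Acta1 (0.97), Myl1 (1.14) and the skeletal muscle list (1.49), and low for Sftpd (6.44) and Slc7a11 (-8.63, below background). Mouse 4 in 21% O2 was low for the array's 75th percentile (9.34), H2-Aa (2.35), Hba-a1 (7.78) and Psrc1 (-2.98), and high for Ddx3y (1.22), the Y chromosome list (4.19), Polr2a (0.31) and Mmp10 (-6.94, below background).

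In 85% O2, mouse 1 was high for Tnni1 (-2.80) and the adipocyte list (-2.45). Mouse 2 was high for the type I pneumocyte list (0.23) and low for Il13ra2 (-4.98) and Retnlg (-1.18). Mouse 3 was low for Ifit3 (2.11), and mouse 4 was low for Igfbp7 (-4.23) and Mvd (-0.08).

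The oxygen effect differed between P5 and P14 for 7786 genes in limma's interaction test. The log2 effect was more positive at P14 by 4.83 for Bean1, 3.71 for Tnni1, 3.27 for Saa3 and 3.19 for Col5a3. It was more negative at P14 by -5.56 for Crabp1, -5.50 for Cyp2e1, -4.13 for Tssk5 and -3.51 for Gm10375. Between antimiRs at P14, the oxygen effect differed for 12 genes.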

How the results depend on the processing

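Leaving out 1 mouse at a time gave 10139 to 10610 probes higher and 11335 to 12329 lower, 4 to 6 mitosis genes lower, 20 p53, 25 to 26 NRF2 and 17 ATF4 targets higher, and 14549 to 16083 probes with an age difference. The replicate number as a block gave 10875 probes higher, 5 probes with a difference between antimiRs (1 under quantile normalization), 1 interferon-stimulated gene lower and 1 xenobiotic gene higher, took the calls from Acta1, Cd3g and Dntt, and added one for Ddx3y. Pairing was not borne out, and slide as a block could not be fitted. With normexp, 6502 probes were lower. Without the 4 libraries with both Xist and Ddx3y, 7103 probes were higher and 7110 lower, with 8 injured epithelium and 5 interferon-stimulated genes higher and 0 mitosis genes lower. Mitosis genes lower numbered 3 with normexp, the 75th percentile as a covariate, or without mice 1 and 4 in 21% O2, 4 with quantile normalization or the authors' values, and 13 with 8 arrays alone. An absolute log2 fold change of at least 1 left 2295 probes higher and 5388 lower, 8 ATF4, 13 NRF2 and 2 interferon-stimulated genes higher, and 1 mitosis, 11 lymphocyte and 7 endothelial genes lower.

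Signs turned for Ager (-0.04 with normexp, -0.16 with quantile normalization, -0.17 with the authors' values, -0.06 without mice 1 and 4 in 21% O2), Krt17 (0.12) and Ttk (0.08) with normexp, and the collagen median (-0.02 with quantile normalization and the authors' values). Vegfa went to -0.19 (quantile normalization, authors' values), -0.03 (without mouse 2 in 85% O2), 0.00 (without mouse 4 in 21% O2), -0.01 (without mice 1 and 4) and at most 0.06 (without mouse 3 in 85% O2). Polr2a went to -0.07 (75th percentile as a covariate) and 0.00 (Y chromosome level as a covariate, or without mouse 3 in 21% O2, against 0.13 without mouse 4), Mcm2 to 0.00 (without mouse 1 in 85% O2, against 0.17 without mouse 4) and -0.02 (without mice 1 and 4), and the Wnt and hedgehog median to 0.04 without the 4 libraries. The causes were not tested. The choices to leave out mice 1 and 4 or the 4 libraries were made after seeing the data.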
